A study of Homo sapiens with 8 samples.

Results

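AMTN encodes amelotin, a secreted protein of the maturing enamel surface, and its relatives AMBN (ameloblastin), ENAM (enamelin) and ODAM (odontogenic ameloblast-associated protein) encode other enamel matrix proteins. AMTN was chosen by its log2 difference between an EZH2 hairpin and a control hairpin, the largest increase of all genes, and the relatives were taken because they belong to the same family of secretory calcium-binding phosphoproteins and lie on the same stretch of chromosome 4. Of the 4 genes, 3 had a probe set paired with their symbol, among 14884 genes in all, each with 1 probe set. ODAM had no paired probe set, so it was not analysed here beyond its upstream sequence.

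RNA came from SCC13, a long-used line of human skin squamous carcinoma cells, which received 1 of 4 short hairpins (2 arrays for each). shGFP, aimed at a jellyfish protein, was the control. shBMI1 and shRING1B were aimed at proteins of Polycomb repressive complex 1, and shEZH2 at the methyltransferase of Polycomb repressive complex 2. No group without a hairpin was analysed here, the labels give no time after hairpin delivery, and they leave it unsaid whether the cultures behind paired arrays were separate. The p-values therefore reflect only array-to-array spread, which may be technical. SCCL3 opens the titles of both shEZH2 arrays where the other titles open with SCC13, so a difference in cells or batch and the EZH2 hairpin cannot be told apart in the shEZH2 values.

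Secretory calcium-binding phosphoproteins arose by duplication of a SPARC-like gene, and a proline- and glutamine-rich branch of them holds the enamel matrix genes, the milk caseins and several salivary proteins. Ameloblasts, the epithelial cells that make enamel, secrete AMBN and ENAM while enamel is laid down, and AMTN and ODAM later, as it hardens. AMTN, ODAM and FDCSP are also made by the junctional epithelium, the collar of gum epithelium that attaches to the tooth surface. Polycomb complexes keep developmental genes silent, mostly at promoters rich in the dinucleotide CG.

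The upstream sequences of the 4 genes are shown so that the promoter of AMTN can be read beside those of its relatives. They are the 250 bases before the RefSeq start of each gene in build GRCh38.p14, all on the plus strand, at chr4:70518319-70518568 for AMTN, chr4:70592006-70592255 for AMBN, chr4:70628494-70628743 for ENAM (the first of 2 starts) and chr4:70195475-70195724 for ODAM. Capitals mark GATTGGT, the reverse strand of a CCAAT box with its flanking bases.
AMTN: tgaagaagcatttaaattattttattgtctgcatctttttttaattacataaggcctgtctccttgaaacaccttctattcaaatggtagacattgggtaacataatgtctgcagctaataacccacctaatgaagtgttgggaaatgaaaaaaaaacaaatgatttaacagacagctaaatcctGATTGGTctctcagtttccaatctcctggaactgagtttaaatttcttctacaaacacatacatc
AMBN: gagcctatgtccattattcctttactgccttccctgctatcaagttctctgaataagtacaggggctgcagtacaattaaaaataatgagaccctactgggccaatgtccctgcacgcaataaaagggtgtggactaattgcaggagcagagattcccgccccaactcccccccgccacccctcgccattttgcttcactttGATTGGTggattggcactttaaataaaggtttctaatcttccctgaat
ENAM: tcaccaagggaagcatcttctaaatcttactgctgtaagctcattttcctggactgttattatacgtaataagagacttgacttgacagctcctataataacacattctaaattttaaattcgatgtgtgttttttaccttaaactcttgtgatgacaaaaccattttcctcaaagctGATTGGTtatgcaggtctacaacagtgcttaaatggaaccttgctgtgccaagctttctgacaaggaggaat
ODAM: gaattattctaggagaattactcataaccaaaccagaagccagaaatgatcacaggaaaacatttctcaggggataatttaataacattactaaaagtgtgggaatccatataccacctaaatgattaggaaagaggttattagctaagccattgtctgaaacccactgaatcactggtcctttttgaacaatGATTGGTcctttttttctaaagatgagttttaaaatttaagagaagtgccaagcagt
Each of these 4 windows held GATTGGT 1 time, with its first base 65 bases before the start in AMTN, 48 in AMBN, 72 in ENAM and 57 in ODAM. Searched on both strands, the motif occurred in 3.54% of 35116 RefSeq windows of this length, and it was chosen after these windows had been read. The shorter CCAAT, which lies inside it and is the box bound by the factor NF-Y, occurred in 32% of windows, and 3 times each in AMTN and AMBN. The window before the second start of ENAM, at chr4:70637461-70637710, held neither. The AMTN and ODAM windows had 0 CG dinucleotides, ENAM had 2 (1 before its second start) and AMBN had 4, where the median window had 11. As few as 0 occurred in 6.06% of windows and 4 or fewer in 34.3%. TATAAA was in none of the windows of the 4 genes and in 10.7% of all windows. These are matches of letters only, and no binding or histone mark was measured.

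EZH2 itself checked the labels. Its log2 values were 9.83 and 9.97 with shGFP, 9.74 and 9.93 with shBMI1, 9.62 and 9.86 with shRING1B, and 8.95 and 9.03 with shEZH2. It fell with shEZH2 (-0.91 ± 0.12 against shGFP, adjusted p = 0.0183 by limma), and both shEZH2 arrays lay below all 6 others. BMI1 and RNF2, which encodes RING1B, had no paired probe set, so those knockdowns were not checked.

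AMTN was high on both shEZH2 arrays and lower on all others. Its RMA value, a log2 level, was 6.25 and 5.96 with shGFP, 6.60 and 6.46 with shBMI1, 7.04 and 6.27 with shRING1B, and 8.62 and 8.49 with shEZH2. Both shEZH2 arrays thus lay above all 6 other arrays with no overlap, while the shRING1B pair spread over the shBMI1 pair. The group means in rising order were 6.10 ± 0.20 (SD, n = 2) for shGFP, 6.53 ± 0.10 for shBMI1, 6.66 ± 0.55 for shRING1B and 8.56 ± 0.10 for shEZH2.

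**Figure D1:**
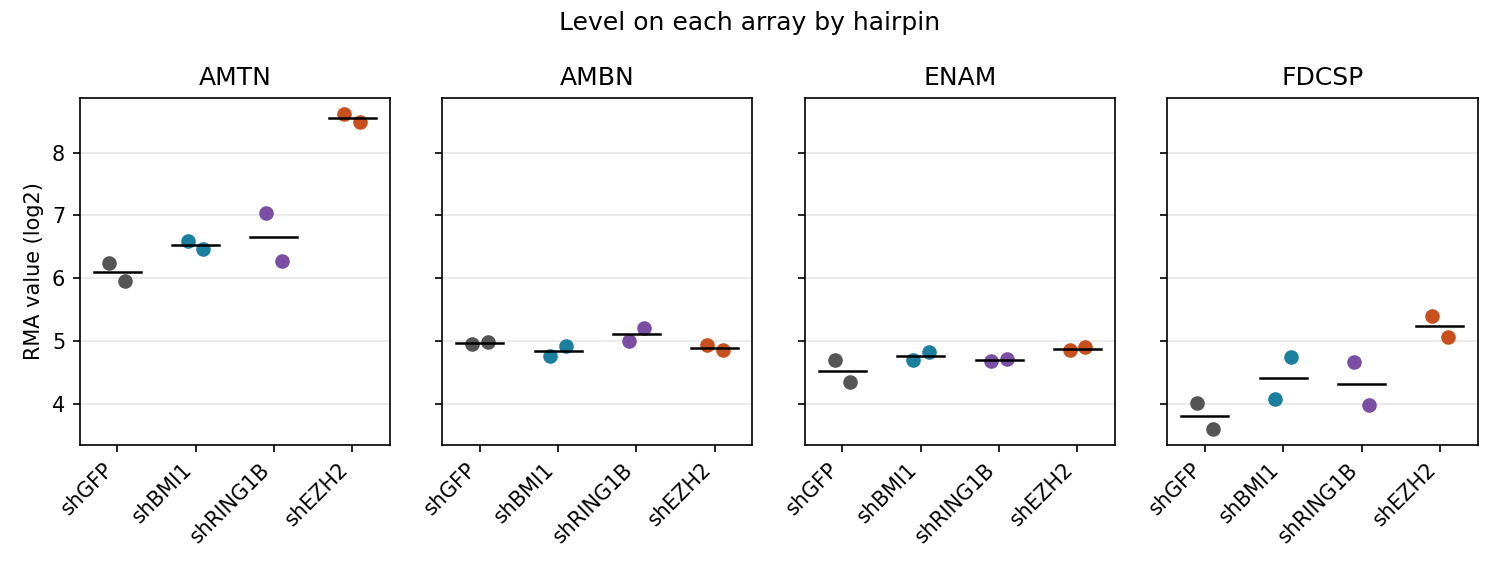
RMA values (log2) of AMTN, AMBN, ENAM and FDCSP on each of the 8 arrays by hairpin, with points for arrays and bars for group means. AMTN sits at 8.49 and 8.62 with shEZH2 and between 5.96 and 7.04 on the other arrays, whereas AMBN stays between 4.76 and 5.21.

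With shEZH2 the AMTN level was 2.45 ± 0.22 (SE of the limma fit) above shGFP, 2.03 ± 0.22 above shBMI1 and 1.90 ± 0.22 above shRING1B on the log2 scale. The value against shGFP chose the gene and the others share its shEZH2 arrays, so all are given without a test. In each of these 3 comparisons AMTN ranked 1 of 14884 genes by increase, and the ranks are not independent. Leaving out 1 shGFP or shEZH2 array gave between 2.31 and 2.60 against shGFP, and the arrays of the other hairpins do not enter this difference.

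AMTN was also above shGFP with the other hairpins, by less, and neither difference passed. With shRING1B it was 0.55 ± 0.22 higher on the log2 scale (95% interval 0.04 to 1.07, unadjusted p = 0.0388, adjusted p = 0.543 by limma with Benjamini-Hochberg adjustment over all genes, n = 2 per group). This value rested on shRING1B replicate 1: it was 0.17 without that array and 0.94 without replicate 2. With shBMI1 it was 0.43 ± 0.22 higher (interval -0.09 to 0.95, adjusted p = 0.929 by limma). Both arrays of each hairpin were above both shGFP arrays, as were 18.2% of all genes with shRING1B and 14% with shBMI1. shRING1B and shBMI1 did not differ beyond their spread (0.13 ± 0.22, interval -0.39 to 0.64, adjusted p = 0.92 by limma). All comparisons with shGFP share the same 2 control arrays.

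AMBN, which lies next to AMTN and encodes a cell-adhesive protein of forming enamel, stayed near one level. It read 4.95 and 4.99 with shGFP, 4.76 and 4.92 with shBMI1, 5.00 and 5.21 with shRING1B, and 4.93 and 4.86 with shEZH2. The highest of the 8 arrays was thus a shRING1B array and the lowest a shBMI1 array. With shEZH2 it was at -0.08 ± 0.10 against shGFP (interval -0.32 to 0.16, adjusted p = 0.745 by limma), with shRING1B at 0.13 ± 0.10 (interval -0.10 to 0.37, adjusted p = 0.796) and with shBMI1 at -0.13 ± 0.10 (interval -0.37 to 0.11, adjusted p = 0.989). Leaving out 1 array gave -0.12 to -0.04 with shEZH2, 0.03 to 0.24 with shRING1B and -0.21 to -0.05 with shBMI1.

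ENAM, which encodes a large phosphorylated protein of forming enamel and is the next gene along, was slightly higher with shEZH2 without passing. Its values were 4.69 and 4.35 with shGFP, 4.69 and 4.82 with shBMI1, 4.68 and 4.71 with shRING1B, and 4.86 and 4.90 with shEZH2. The 2 shEZH2 arrays were the highest of the 8, and shGFP replicate 2 was the lowest. The log2 difference with shEZH2 was 0.36 ± 0.12 (interval 0.08 to 0.64, unadjusted p = 0.0172, adjusted p = 0.206 by limma). It was 0.19 without shGFP replicate 2 and 0.53 without shGFP replicate 1. With shBMI1 it was 0.24 ± 0.12 (interval -0.04 to 0.51) and with shRING1B 0.18 ± 0.12 (interval -0.10 to 0.45), with adjusted p = 0.922 and 0.76 by limma. Without shGFP replicate 2 these were 0.07 and 0.00, and without shGFP replicate 1 they were 0.41 and 0.35.

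Of the 2 measured relatives, 0 were called with shEZH2 by limma at an adjusted p under 0.05, where 0.732% of all genes were called, and 1 (ENAM) had an unadjusted p under 0.05, as did 16.2% of all genes. With shRING1B and with shBMI1, 0 of 2 were called, where 0% of all genes were called in each, and 0 of 2 had an unadjusted p under 0.05, against 8.6% and 5.58% of all genes. The change of AMTN with shEZH2 exceeded that of AMBN by 2.53 ± 0.38 and that of ENAM by 2.10 ± 0.31 log2 units (SE over differences taken within an array). Since AMTN was chosen for its change, these differences are a description and were not tested. AMBN and ENAM were among the dimmest 30% of genes by mean value, where RMA compresses differences, and AMTN was not.

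**Figure D2:**
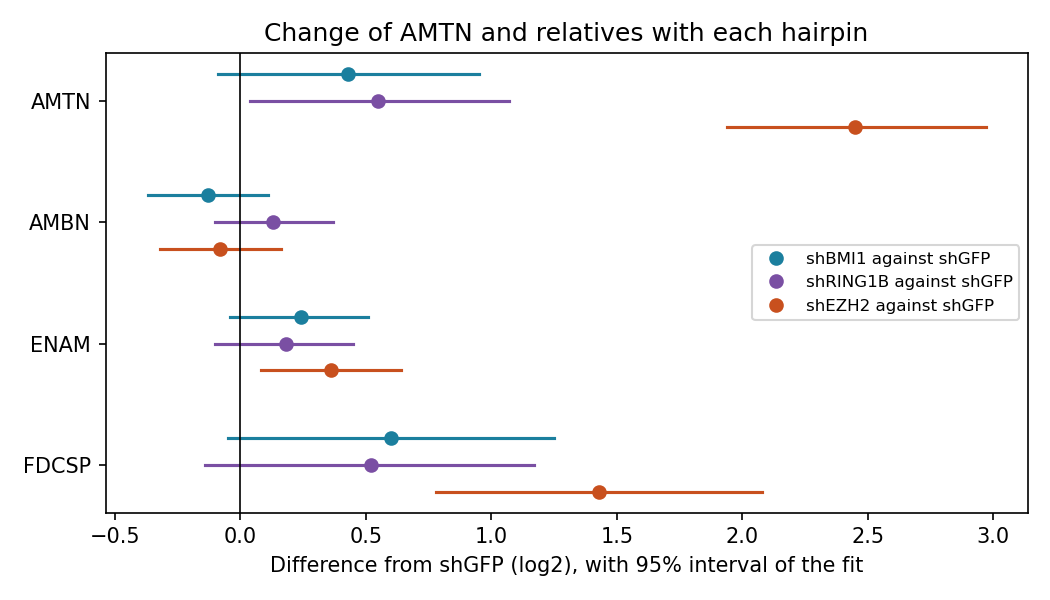
Difference from shGFP (log2) for AMTN, AMBN, ENAM and FDCSP with each hairpin, with points for estimates and lines for 95% intervals of the limma fit. The AMTN interval with shEZH2 runs from 1.94 to 2.97, and the AMBN and ENAM intervals end at 0.16 and 0.64. AMTN was chosen by this difference, so the gap between the intervals is no test.

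FDCSP, a small secreted protein gene of the same proline- and glutamine-rich branch, was the relative outside the 4 genes whose shEZH2 difference was nearest to that of AMTN. It was singled out after its values were seen. It read 4.01 and 3.60 with shGFP, 4.07 and 4.74 with shBMI1, 4.67 and 3.98 with shRING1B, and 5.40 and 5.07 with shEZH2. Both shEZH2 arrays were above all 6 others. Both shBMI1 arrays were also above both shGFP arrays, which held for 14% of all genes, and the shRING1B pair overlapped each of these pairs. With shEZH2 it was 1.43 ± 0.28 higher on the log2 scale than with shGFP, the rank of 5 among all genes by increase, but it did not pass (interval 0.78 to 2.08, adjusted p = 0.0801 by limma). It passed under 3 alternatives, with adjusted p = 0.0132 for a trended robust variance, 0.0495 for array weights and 0.0489 when the fit held protein-coding genes only. With shBMI1 and shRING1B it was at 0.60 ± 0.28 and 0.52 ± 0.28 (adjusted p = 0.903 and 0.677 by limma). Leaving out 1 array gave 0.26 (without shBMI1 replicate 2) to 0.94 (without shBMI1 replicate 1) for the former and 0.17 (without shRING1B replicate 1) to 0.86 (without shRING1B replicate 2) for the latter. The change of AMTN exceeded that of FDCSP by 1.02 ± 0.30 with shEZH2 and by 0.04 ± 0.30 with shRING1B, and was 0.17 below it with shBMI1 (-0.17 ± 0.30). FDCSP was also among the dimmest 30% of genes.

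Leaving aside AMTN, which was not tested with shEZH2, no measured member of the family passed with that hairpin in the main fit. Of the 13 other genes listed for the proline- and glutamine-rich branch, 8 had a probe set, 0 were called with shEZH2 by limma (0.732% of all genes), and 1 (FDCSP) had an unadjusted p under 0.05 (16.2% of all genes). Their median difference was -0.06, beside -0.01 over all genes. CSN3, a casein, was at 0.23 ± 0.16, and the saliva protein genes STATH and HTN1 were at -0.16 ± 0.10 and -0.11 ± 0.12. SMR3A, a salivary peptide precursor, was instead higher with shRING1B (0.45 ± 0.12) and shBMI1 (0.33 ± 0.12) without passing (adjusted p = 0.384 and 0.852 by limma), and at -0.09 ± 0.12 with shEZH2.

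All 5 acidic relatives of bone and dentin were measured, and 0 were called with any hairpin against shGFP by limma or had an unadjusted p under 0.05. Over all genes 0.732% were called with shEZH2 and 0% with each other hairpin, and 16.2% (shEZH2), 8.6% (shRING1B) and 5.58% (shBMI1) had an unadjusted p under 0.05, so a count of 0 among 5 says little about these genes. With shEZH2 they lay between -0.24 (DMP1, a matrix protein of osteocytes and odontoblasts) and 0.16 (MEPE, another bone phosphoprotein), with SPP1, which encodes osteopontin, at 0.15 ± 0.15. Of 3 measured SPARC-like genes, 0 were called, and the values with shEZH2 ran from -0.08 to 0.03. SMOC1, one of these, was at 0.64 ± 0.18 with shRING1B (adjusted p = 0.378).

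None of the other measured enamel formation genes passed with shEZH2 against shGFP, which says little where 0.732% of all genes were called. Of 16 listed proteases, transporters and other enamel genes, 9 had a probe set, 0 were called by limma (0.732% of all genes) and 3 had an unadjusted p under 0.05 (16.2% of all genes). These were ODAPH, a small secreted protein gene mutated in inherited enamel defects, at 0.57 ± 0.12 (adjusted p = 0.0892), the enamel protease KLK4 at 0.39 ± 0.16 (adjusted p = 0.298) and the calcium store sensor STIM1 at -0.23 ± 0.09 (adjusted p = 0.271). ODAPH read 6.16 and 6.20 with shGFP, 6.81 and 6.69 with shEZH2, 6.14 and 6.24 with shRING1B and 5.72 and 6.07 with shBMI1, so both shEZH2 arrays were above the other 6. Against shBMI1 it rose with shEZH2 (0.85 ± 0.12, adjusted p = 0.0233 by limma), the 1 gene of the 9 called in that comparison, where 0.974% of all genes were. KLK4 was also at 0.37 ± 0.16 with shBMI1 and 0.32 ± 0.16 with shRING1B against shGFP. STIM1 was at -0.23 ± 0.09 and -0.17 ± 0.09 in these comparisons. None of these passed, and neither gene's shift was particular to shEZH2. The list's median was 0.12 with shEZH2 and -0.04 with each other hairpin. MMP20, the protease that cuts amelogenin, was at 0.15 ± 0.18.

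Among transcription factors of the enamel epithelium, 7 of 9 had a probe set, 0 were called with shEZH2 by limma and 3 had an unadjusted p under 0.05, beside 0.732% and 16.2% of all genes. The median was 0.20 with shEZH2, beside -0.01 over all genes. It was 0.17 with shRING1B and 0.00 with shBMI1, beside 0.00 and -0.01 over all genes. RUNX2, a factor of bone and tooth formation, was at 0.37 ± 0.09 (adjusted p = 0.12), MSX2 at 0.28 ± 0.09 (adjusted p = 0.208) and SATB1 at 0.25 ± 0.09 (adjusted p = 0.23). MSX2 was also at 0.32 ± 0.09 with shRING1B and with shBMI1, and did not pass in either (adjusted p = 0.403 and 0.722 by limma). SATB1 was at 0.21 ± 0.09 with shRING1B and 0.39 ± 0.09 with shBMI1, also without passing (adjusted p = 0.546 and 0.58 by limma). RUNX2 was at 0.17 ± 0.09 with shRING1B and -0.04 ± 0.09 with shBMI1. Of 13 genes of the cytokine and TGF-beta signalling route described for AMTN in gum epithelium, 6 had a probe set, and 0 were called and 0 had an unadjusted p under 0.05 in any comparison with shGFP. Over all genes the shares with shEZH2, shRING1B and shBMI1 were 0.732%, 0% and 0% called, and 16.2%, 8.6% and 5.58% at an unadjusted p under 0.05. SMAD3, which carries TGF-beta signals to the nucleus, was at 0.25 ± 0.11 with shEZH2, and TNF and RELA, the cytokine and the NF-kB subunit, were at 0.02 ± 0.10 and 0.00 ± 0.10. Of 10 genes that attach epithelium to the basement membrane, 3 had a probe set, and DST, PLEC and CD151 lay between -0.03 and -0.01 with shEZH2 (0 called, 0 at an unadjusted p under 0.05). KRT19, a keratin of junctional epithelium, was at 0.06 ± 0.12.

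Of the measured genes around AMTN on the chromosome, FDCSP was the nearest to it in its difference from shGFP with shEZH2, and most other differences lay near 0. The 30 genes taken were the nearest protein-coding genes with a paired probe set, 15 on each side in RefSeq order, and protein-coding genes without one, such as ODAM, were passed over. With shEZH2, 0 of the 30 were called by limma, where 0.732% of all genes were, and 6 had an unadjusted p under 0.05, where 16.2% of all genes did. The median was -0.04, beside -0.01 over all genes, and the range was -0.47 (GNRHR, a hormone receptor) to 1.43 (FDCSP). Both shEZH2 arrays were above both shGFP arrays for 7 of the 30 and below both for 13, where 23.1% and 27% of all genes were. On one side the next measured genes were SMR3B at 0.10 ± 0.19 and SMR3A, with 2 protein-coding genes without a paired probe set between SMR3B and AMTN. On the other side AMBN and ENAM were followed by RUFY3 at 0.15 ± 0.11 and GRSF1 at -0.12 ± 0.09. The chemokine CXCL8, the 19th protein-coding gene on that side and the 14th measured, was at 0.90 ± 0.23 with shEZH2 and 0.95 ± 0.23 with shRING1B, without passing (adjusted p = 0.12 and 0.346 by limma).

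**Figure D3:**
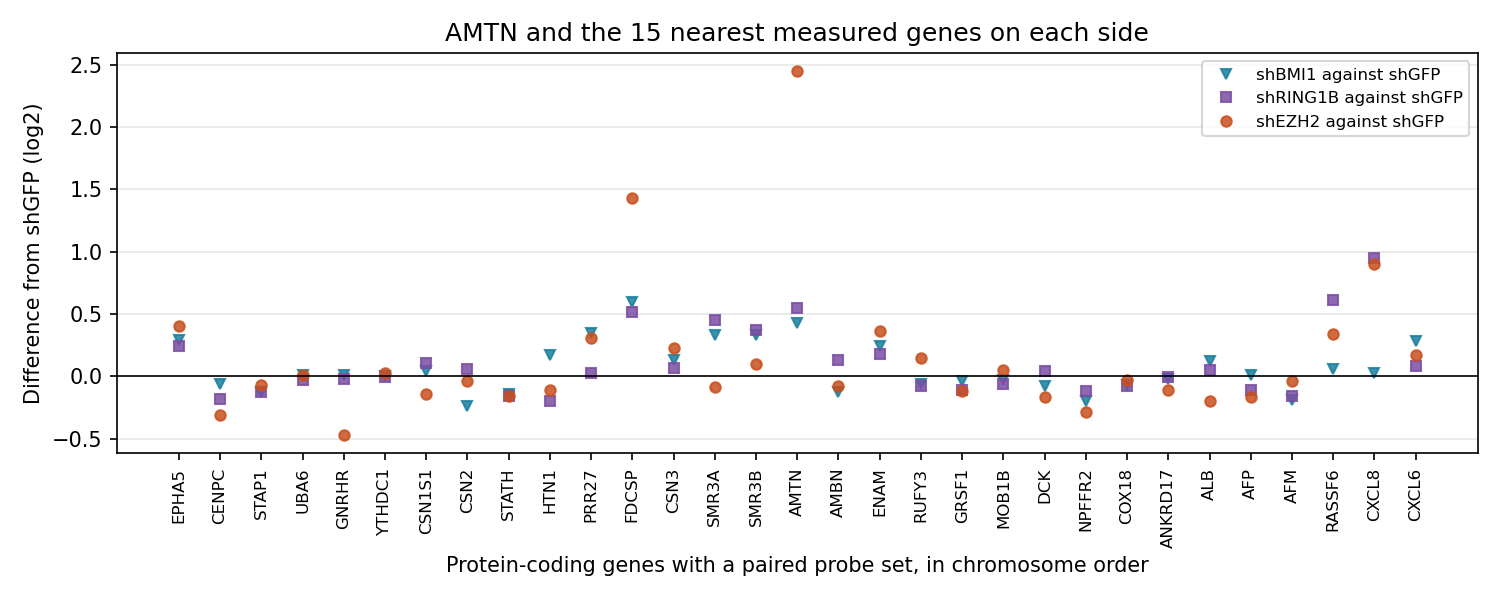
Difference from shGFP (log2) with each hairpin for AMTN and the 15 nearest protein-coding genes with a paired probe set on each side, in chromosome order and not to scale of distance, with genes without a probe set left out. AMTN at 2.45 and FDCSP at 1.43 with shEZH2 stand above the others, most of which lie near 0.

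The genes whose pattern was most like that of AMTN lay elsewhere. Among 733 genes whose group means spanned at least 0.5 log2 units, the highest Pearson correlations with AMTN over the 8 arrays were those of MAP1B (0.982), which binds microtubules, IBTK (0.982), UPP1 (0.976), a uridine phosphorylase, WFDC2 (0.974), a secreted protein with a protease inhibitor fold, and ASNS (0.97), the asparagine synthetase. KIF21B, COXFA4L3, EBI3, GPR27 and PSAT1 followed, down to 0.963. These correlations rest on the distance of the shEZH2 pair from the other 6 arrays, and all values share those arrays and their normalization. Over the 6 arrays without shEZH2 the correlations of these 10 genes ran from 0.521 (PSAT1) to 0.942 (GPR27), and only 2 of the 10 were among the 10 highest there. MAP1B read 7.70 and 7.54 with shGFP, 7.94 and 7.72 with shBMI1, 7.95 and 7.87 with shRING1B, and 8.78 and 8.84 with shEZH2. It thus had the same order of group means as AMTN over a smaller range.

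Over the 8 arrays the lowest correlations with AMTN were those of EZH2 (-0.99), MANSC1 (-0.981), MCM10 (-0.978), a replication factor, FBN2 (-0.975), a microfibril protein, and GPATCH4 (-0.974). Since AMTN was chosen for its rise on the shEZH2 arrays and EZH2 is the target of that hairpin, the sign of the EZH2 value over 8 arrays follows from the choice. Over the 6 arrays without shEZH2 the values were -0.886 for EZH2, -0.835 for MANSC1, -0.738 for MCM10, -0.703 for FBN2 and -0.975 for GPATCH4, the lowest of these 5. Replicate 1 read higher than replicate 2 for AMTN and lower for EZH2 in all 4 groups, and the part of this shared difference in the correlations was not tested.

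**Figure D4:**
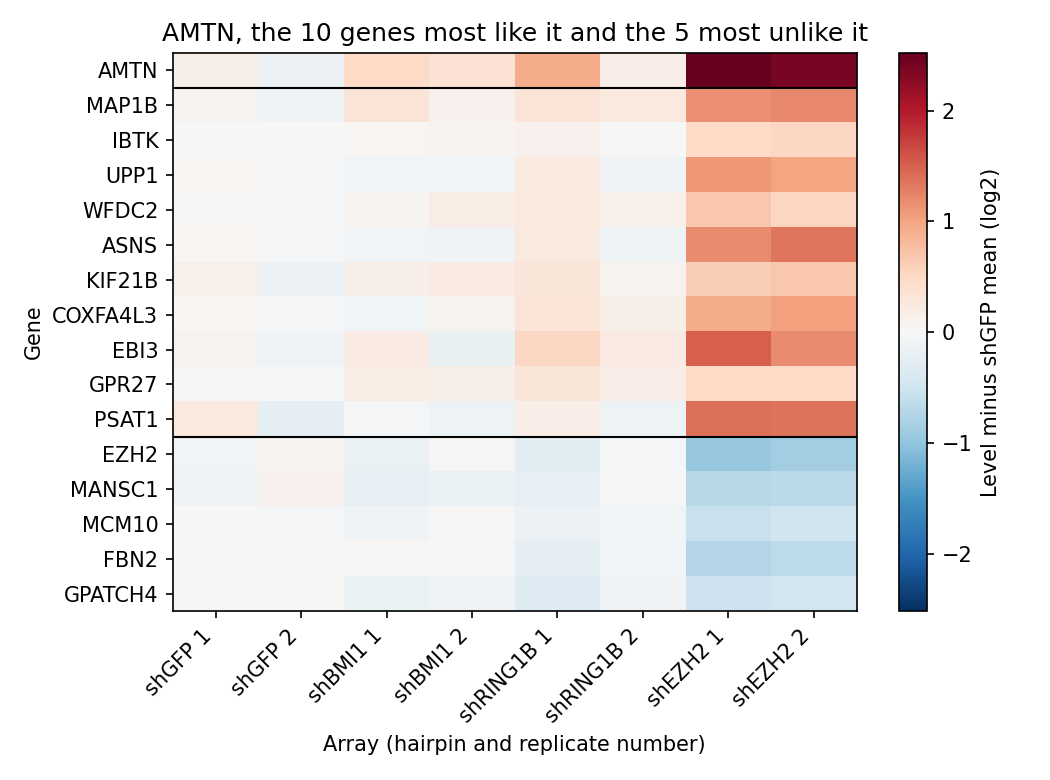
Level on each array minus the shGFP mean (log2, colour) for AMTN, the 10 genes most like it and the 5 most unlike it by Pearson correlation over the 8 arrays. The 2 shEZH2 columns are high for the first 11 genes and low for the last 5, and AMTN has the widest range.

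Markers of other cell types were read beside these results. Of the 5 ameloblast markers, the 4 measured (ENAM, AMBN, MMP20, KLK4) had a mean log2 value per array of 4.85 to 4.99 with shGFP and 5.10 to 5.15 with shEZH2, 4.99 to 5.17 with shBMI1 and 4.93 to 5.19 with shRING1B. With shEZH2 against shGFP, 0 of 4 were called by limma and 2 had an unadjusted p under 0.05. Beside this and the marker lists below, 0.732% of all genes were called in that comparison and 16.2% had an unadjusted p under 0.05. The 4 measured odontoblast and osteoblast markers of 7 ran from 4.67 to 4.71 with shEZH2 and 4.69 to 4.82 with shGFP. The 4 measured keratinocyte markers of 8 (KRT5, KRT14, DSG3, KRT15) had a mean per array of 8.89 to 9.06 with shGFP and 8.81 to 8.88 with shEZH2. It was 8.62 to 8.84 with shBMI1 and 8.55 to 8.77 with shRING1B. With shEZH2 against shGFP 3 were lower and 1 higher. With shRING1B 0 were called and 3, all lower, had an unadjusted p under 0.05 by limma, where 8.6% of all genes did. Single markers had opposite signs: with shEZH2 against shGFP, KRT14 was at -0.57 ± 0.13 (adjusted p = 0.0999 by limma) and DSG3, a desmosome cadherin, at 0.43 ± 0.13 (adjusted p = 0.176). DSG3 was higher with shEZH2 than with shRING1B (1.01 ± 0.13, adjusted p = 0.0187 by limma) and shBMI1 (0.91 ± 0.13, adjusted p = 0.022), the 1 marker of the 4 called in each, where 0.578% and 0.974% of all genes were. Against shGFP, DSG3 was at -0.58 ± 0.13 with shRING1B and -0.48 ± 0.13 with shBMI1 (adjusted p = 0.31 and 0.664 by limma). Part of each called difference thus lay in lower values with those hairpins. Of 6 fibroblast markers, 2 were measured, with means of 6.39 to 6.60 with shEZH2 and 5.44 to 5.72 with shGFP. Their means were 5.86 to 6.04 with shBMI1 and 5.86 to 5.93 with shRING1B. DCN, a small matrix proteoglycan, rose with shEZH2 (0.93 ± 0.10, adjusted p = 0.0109 by limma), and LUM was at 0.89 ± 0.23 (adjusted p = 0.12). With shBMI1 DCN was at 0.45 ± 0.10 and LUM at 0.29 ± 0.23. With shRING1B they were at 0.13 ± 0.10 and 0.49 ± 0.23, and none of these passed. Of 3 measured melanocyte markers, MLANA rose with shEZH2 (0.64 ± 0.11, adjusted p = 0.046 by limma), and PMEL and TYR were at -0.15 ± 0.12 and -0.01 ± 0.15. MLANA was also at 0.29 ± 0.11 with shBMI1 and 0.22 ± 0.11 with shRING1B, without passing in either. MLANA was dim, at 4.18 and 4.19 with shGFP and 4.80 and 4.85 with shEZH2, and so was LUM, with means of 4.15 and 5.04. The 3 measured leukocyte markers of 6 ran from 7.29 to 7.42 with shEZH2 and 7.08 to 7.26 with shGFP, with 0 called and 0 at an unadjusted p under 0.05. The part of these markers in the AMTN difference was not tested. A larger number of cells that make AMTN and more AMTN RNA per cell cannot be told apart in bulk RNA.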

How the data were processed

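Gene expression was read from 8 deposited arrays, 2 for each of 4 hairpins. Each deposited number is a log2 level of 1 probe set. The authors made it with RMA, according to the submitters' processing notes, which list limma too; RMA subtracts background, equalizes the arrays' quantiles and summarizes probes. That the scale is log2 was read from RMA and the range of values. For software versions, the probe set library and the genome build, the sources used here state nothing. RMA would hide a shift shared by most genes.

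Of 53617 probe sets, 16098 had 1 gene symbol in the platform annotation, none had several, and the 37519 without a symbol entered no gene test. Symbols were updated through RefSeq by gene identifier. The probe set with the highest mean was used for 779 genes with several, which left 14884 genes. Array medians were 5.49 to 5.52 and gene values correlated between arrays at 0.992 or above. The number of arrays limits precision.

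Limma 3.58.1 in R 4.3.3 fitted a mean per hairpin over 8 arrays (4 residual degrees of freedom, eBayes without trend, no filter). Genes with a two-sided Benjamini-Hochberg adjusted p under 0.05 were called. Errors after differences are SEs, and after means SDs. The fit was tested on simulated data. The members and gene lists were chosen with earlier results of these data known. Named genes are the members, listed genes that passed or had the largest changes, the nearest measured neighbours, and the 10 most and 5 least correlated with AMTN among genes spanning 0.5 log2 units; other genes named were chosen after their values were seen. Upstream sequences are from RefSeq, GRCh38.p14, for all 4 members, and positions of probes were not used. Same-numbered arrays deviated together at correlations of 0.001 to 0.248 over the 6 pairs of hairpins, not all above 0.1, so the numbers were not taken to pair the arrays.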

Additional observations from a re-analysis of the deposited data

How the results depend on the processing

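Many of the 18 alternatives, such as leaving out a shBMI1 or shRING1B array, cannot move the AMTN difference between shEZH2 and shGFP from 2.45. This difference ran from 2.31 to 2.60 over all of them, with both ends from leaving out 1 shGFP array. Those of AMTN with shRING1B (0.17 to 0.94) and shBMI1 (0.29 to 0.57) kept their direction and did not pass in any. AMBN and ENAM were called 0 times in each of 17 alternatives per comparison, and the filter on the dimmest 30% of genes removed both, so it gave no value for them. A replicate block left the AMTN difference with shEZH2 at 2.45, as it must with balanced groups, and changed no call of AMTN, AMBN, ENAM or FDCSP. Of the 10 genes most like AMTN, 4 remained among the first 10 by Spearman correlation and 2 by Pearson correlation over the 6 arrays without shEZH2. The range of FDCSP with shEZH2 was 1.23 to 1.63, with adjusted p from 0.0132 to 0.313. FDCSP and the motif GATTGGT were added after seeing the data. Dim probe sets (AMBN, ENAM, FDCSP) limit how small a change could be measured.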
